A study of Mus musculus with 6 samples.

Results

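The actin cytoskeleton genes described here are 56 named genes: the cytoplasmic actins and the proteins that bind actin monomers, start, cap, cut and cross-link filaments, tie them to integrins and to the plasma membrane, and pull on them, plus the intermediate filament gene Vim. They were chosen by symbol, with earlier results of these data known. All 56 were found, each in a single row, among the 56884 genes of the deposited table. RNA was sequenced from mouse bone marrow cells that had been sorted as positive for CD101 and Ly6G, surface marks of mature neutrophils, and then kept in culture. In 3 libraries the cells were cultured with DKK1, Dickkopf-1, which is secreted and blocks Wnt receptors, and in 3 libraries, the control group, without it. The sources used here do not give the DKK1 dose, the time in culture, or the strain and age of the mice. Whether libraries of 1 group are separate mice or cultures is not stated, so the p-values reflect only spread between these libraries, and that spread may be technical.

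Neutrophils crawl, swallow particles and change shape by building and dissolving actin filaments. Monomers are held in reserve by thymosin beta-4 and handed to growing ends by profilin, branches are started by the Arp2/3 complex under the control of WASP and WAVE proteins, and filaments are capped by capping protein and gelsolin-family proteins and taken apart by cofilin. Bundling proteins such as L-plastin, the non-muscle myosin and the talin-kindlin link to integrins turn these filaments into adhesion and traction. Loss of WASP, coronin-1A or kindlin-3 causes immune deficiency in people, and in mice neutrophils without kindlin-3 do not adhere firmly.

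The shallowest library, DKK1 library 2, had 5188116 recovered reads and the deepest, control library 3, had 9851961. Values are normalized counts, that is reads divided by a factor that the authors set for each library. Their sum over all genes was 9706276 to 9775231 in control and 6521100 to 7126726 in DKK1. DKK1 library 2 stood apart from its group. The chi-square of reads over genes, divided by its degrees of freedom, was 13.6 and 12.5 against DKK1 libraries 1 and 3, which differed from each other by 2.99. Both sets are labelled as neutrophils, and by their markers the DKK1 libraries went against that label. All 12 neutrophil markers examined were lower with DKK1, and their summed normalized count was 693442 to 718997 in control and 2868 to 3352 in DKK1. The sorting markers Cd101 and Ly6g averaged 5098 and 1338 in control and 3.53 and 5.96 in DKK1. Of 15 monocyte and macrophage markers 5 were higher (Cd68, Adgre1, Ms4a7, Lpl and Cx3cr1), 7 lower and 3 not past the threshold. Over all genes tested 35.1% were higher and 36.1% lower. The summed level of the 15 was 7421 to 7579 in control and 15392 to 15619 in DKK1, where C1qa had 0 reads. Much of the DKK1 sum was Cd68, which averaged 902 in control and 10121 in DKK1. Markers of monocytes and macrophages were thus a mixed set rather than higher as a whole. The summed level of the 8 B cell markers was 1540.5 to 1657 in control and 42.6 to 122 in DKK1, and that of the 10 T and NK cell markers, 6 of them at 0 reads in every DKK1 library, 55.2 to 89.0 and 1.37 to 5.96. The 8 erythroid markers summed to 1618 to 1780 and 315 to 1500, and within the DKK1 group library 2 was the highest. The 10 fibroblast and endothelial markers summed to 306 to 360 and 154 to 229, with Pdgfra and Emcn at 0 reads in all libraries, and the 6 megakaryocyte markers to 102 to 122 and 82.4 to 93.2. The part of these shifts in the results below was not tested. In bulk samples, fewer cells of a type and less RNA per cell cannot be told apart.

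The actin cytoskeleton genes took 5.88%, 5.90% and 5.86% of all reads in the control libraries and 1.63%, 1.44% and 1.62% in the DKK1 libraries. These shares do not depend on how libraries are scaled to each other, and the groups did not overlap. The Wilson 95% interval of a share spanned at most 5.89% to 5.92% in control library 2 and 1.43% to 1.45% in DKK1 library 2, which covers counting error only. The actins and their monomer-binding proteins fell from 2.20% to 2.25% of reads in control to 0.195% to 0.262% in DKK1. The cross-linking and bundling genes went from 1.13% to 1.16% down to 0.206% to 0.212%. The ezrin, radixin and moesin genes, which link filaments to the membrane, took 0.200% to 0.204% in control and 0.294% to 0.304% in DKK1, the only role group with a larger share of reads in the DKK1 libraries. Their summed normalized count overlapped between the groups, at 19546 to 19806 in control and 19200 to 21650 in DKK1.

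**Figure D1:**
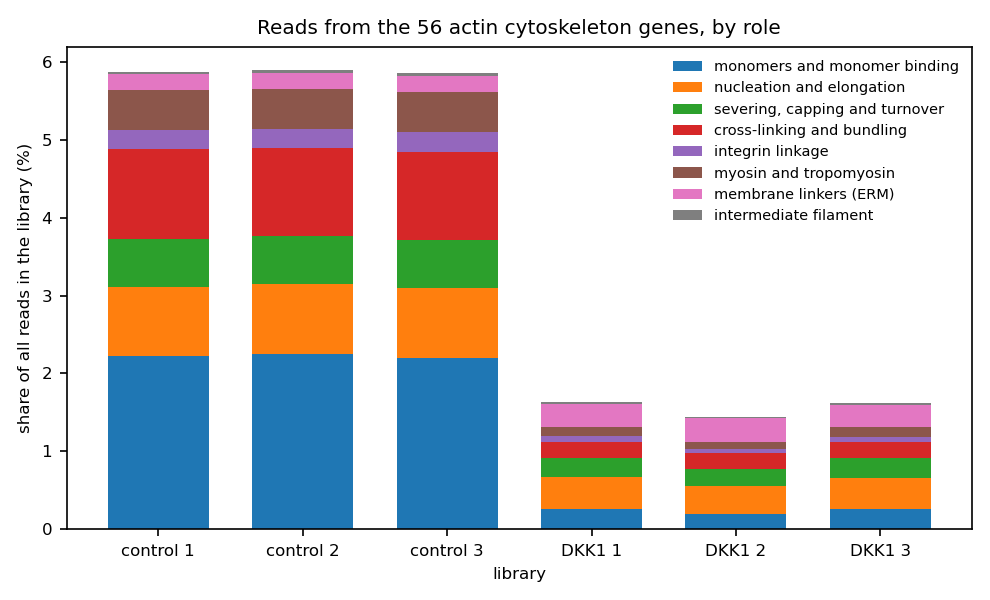
Stacked bars give the share of all reads in each library (%, y axis) that came from the 56 genes, split by role, for control libraries 1 to 3 and DKK1 libraries 1 to 3 (x axis). The control bars reach 5.86% to 5.90% and the DKK1 bars 1.44% to 1.63%, with the monomer group the largest part in control.

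Of the 56 genes, 47 were lower with DKK1, 6 were higher and 3 did not pass the test (limma on log2 of the normalized count plus 1, Benjamini-Hochberg adjusted p under 0.05 over all 16265 genes tested). Over all genes tested, 36.1% were called lower and 35.1% higher, against 83.9% and 10.7% of the actin genes. The median log2 change of the 56 was -1.75, beside -0.03 over all genes tested. All 56 passed the filter on low values. The actin genes are abundant, and abundant genes were lower more often: of the 1817 genes with a mean normalized count of at least 1000 over the 6 libraries, 59.4% were called lower and 33.4% higher, with a median log2 change of -0.79. Of the 45 actin genes at that level 40 were lower and 3 higher, with a median of -1.88. Because 1 was added before taking log2, low genes changed by more than their log2 values show. A fold is the mean normalized count of one group over that of the other.

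The size of these changes depends on the scaling of the libraries. With every library set to the same total, the median of all genes tested moved by 0.47 on the log2 scale, and 44 actin genes were lower and 8 higher, beside 29.2% and 43.6% of all genes, and beside 51.3% and 42.9% of genes at a mean of at least 1000. Under that scaling Coro1b changed direction, Capzb and Ezr no longer passed, and Msn and Marcksl1 were called higher. Of the 56 genes, 35 had their lowest DKK1 value in library 2 and 14 their highest. Without that library 47 were lower and 6 higher. The median coefficient of variation of the 56 genes was 2.02% among control libraries and 10.1% among DKK1 libraries.

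**Figure D2:**
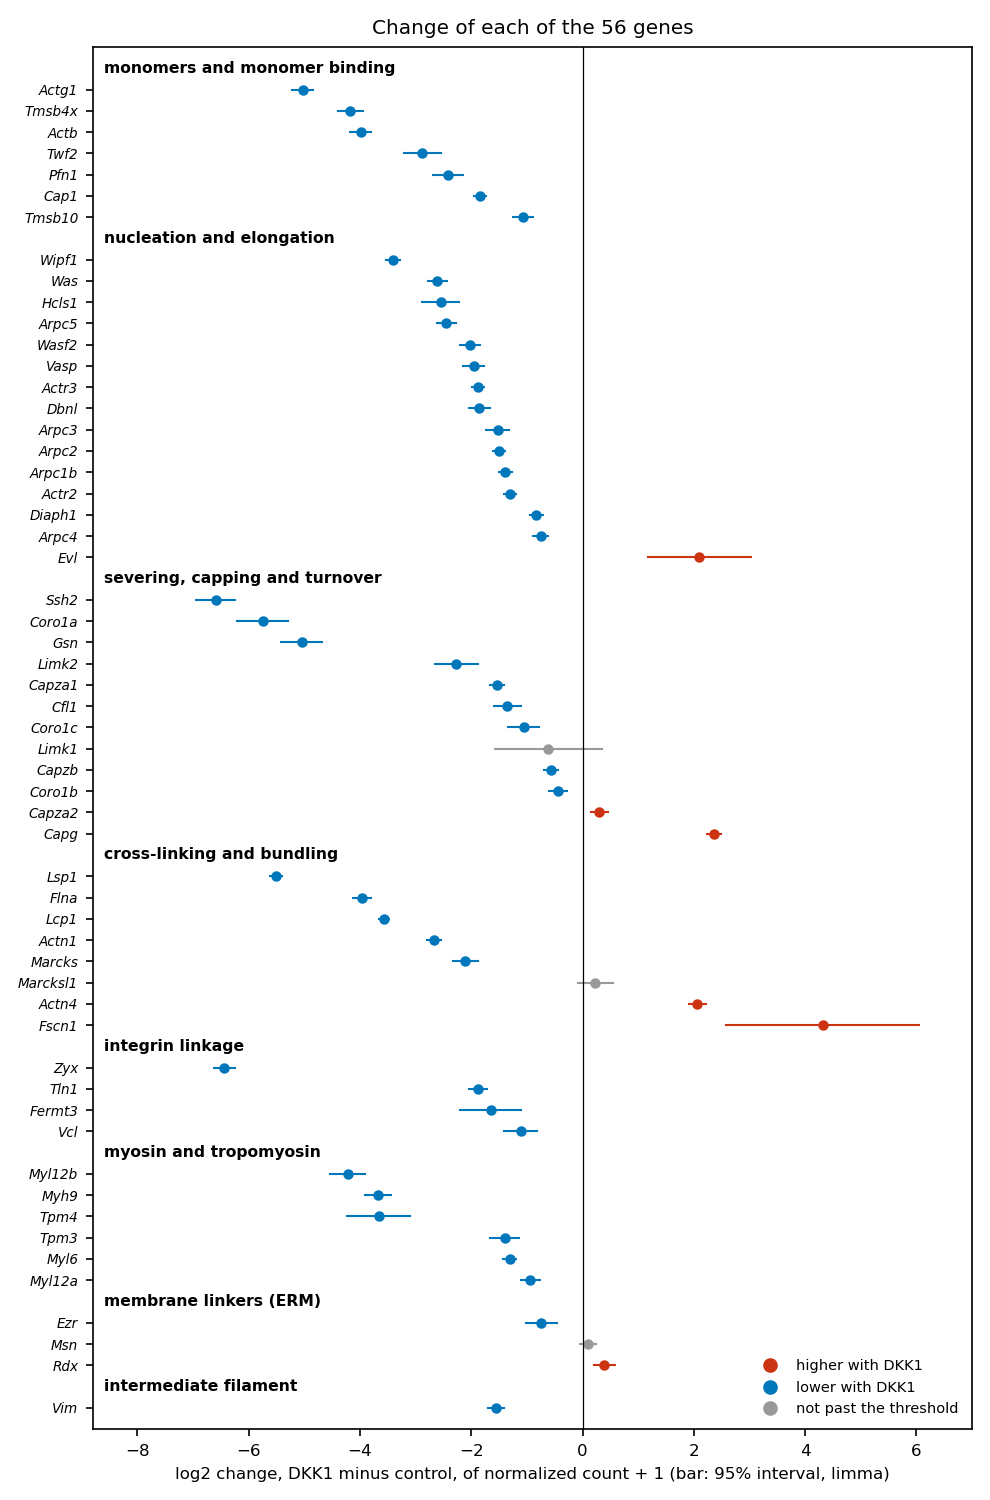
Each point is the log2 change of a gene (x axis, DKK1 minus control, normalized count plus 1) with its 95% interval from limma, grouped by role (y axis) and coloured by call. Of the 56 genes 47 lie to the left as lower and 6 to the right as higher, and the widest interval belongs to Fscn1, which had 4 control reads.

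The 2 actins and their monomer-binding partners were all lower, 7 of 7. Actb, beta-actin (chromosome 5, 142903115 to 142906754, minus strand), stood at 54787, 56048 and 54290.1 in control libraries 1 to 3 and at 3802, 2997 and 3642 in DKK1 libraries 1 to 3. The groups lay far apart, and Actb fell 15.8-fold, from 55042 ± 906 to 3480.3 ± 426 (SD, n = 3 each; log2 change -3.99, SE 0.08, adjusted p = 4.3e-10). Actg1, gamma-actin (chromosome 11, 120345690 to 120348542, minus strand), stood at 37302, 37700.0 and 37742 in control and at 1154, 1011 and 1306 with DKK1. It fell 32.5-fold (log2 change -5.03, SE 0.08, adjusted p = 1.7e-10). Within each library the ratio of Actb to Actg1 was 1.44 to 1.49 in control and 2.79 to 3.30 with DKK1, so gamma-actin fell further, and this ratio is free of library scaling.

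Tmsb4x encodes thymosin beta-4, the main sequestering protein of actin monomers in leukocytes (chromosome X, 167207093 to 167209315, minus strand). Its normalized counts were 101734, 101382 and 98513 in control and 5886, 4629 and 6294 with DKK1, a 17.9-fold fall (log2 change -4.18, SE 0.10, adjusted p = 9.06e-10). Its relative Tmsb10 was far lower in control and moved less: 488, 469 and 485 against 227, 227 and 232. The ratio of Tmsb4x to Tmsb10 therefore went from 209 ± 6.45 to 24.5 ± 3.59 (SD, n = 3 each). Pfn1, profilin-1, which delivers monomers to filament ends, fell 5.30-fold, and Cap1, a cyclase-associated protein that recharges monomers, 3.59-fold. Twf2, twinfilin-2, which binds monomers and caps filaments, was at 992, 969.6 and 1091 in control and at 162, 109 and 147 with DKK1, 7.31-fold lower.

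Scaled to exon length, Tmsb4x was the most abundant of the 56 genes in both groups, at 73336 and 4087 normalized counts per kb of exon in control and DKK1. Actb followed in control at 20546 per kb and Actg1 at 14139, but with DKK1 they took ranks 5 and 25 of the 56, at 1299 and 435. Msn (moesin) moved from rank 15 to rank 2, at 2609 and 2813 per kb, and Capg from rank 47 to rank 3, at 270.1 and 1389. The length-scaled levels therefore spanned a narrower range among the DKK1 libraries, from 2.10 to 4087 per kb against 0.436 to 73336 per kb in control. The low end in control was Fscn1, which had 4 control reads. Exon length covers all annotated exons of a gene and can exceed any transcript: it is 18519 bases in Ssh2, whose longest transcript has 9178. The levels and ranks per kb depend on that choice.

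**Figure D3:**
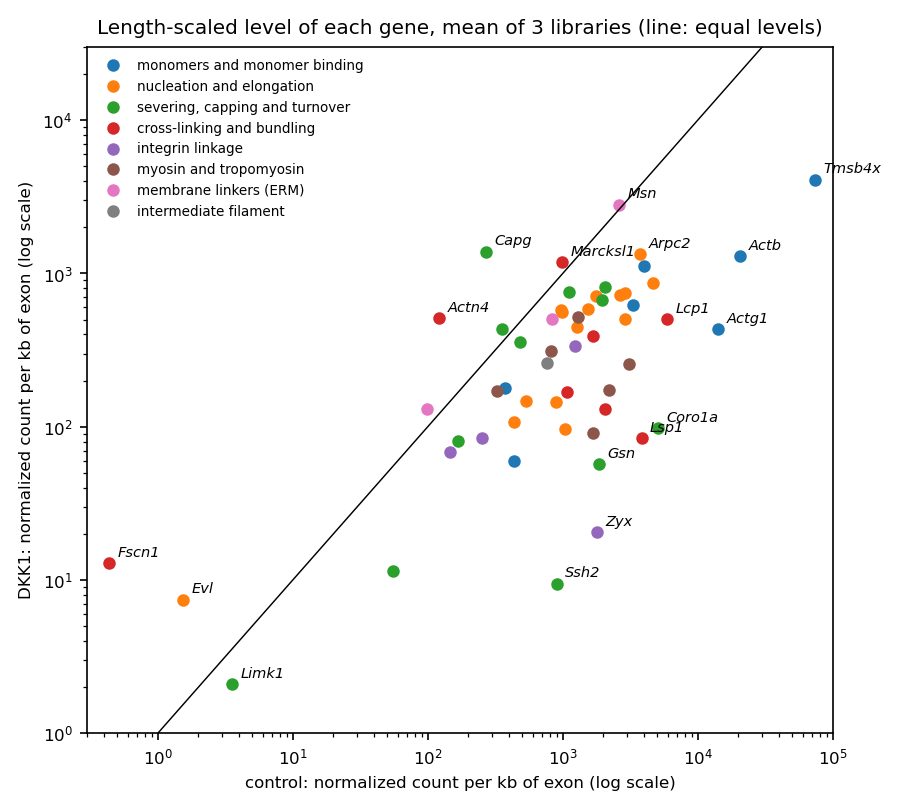
Each point is a gene, with its mean normalized count per kb of exon over the control libraries (x axis, log scale) and over the DKK1 libraries (y axis, log scale), coloured by role. Most points lie under the line of equal levels, Tmsb4x is highest on both axes (73336 and 4087), and Capg, Actn4, Fscn1 and Evl lie well above the line.

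Of 15 genes that start or lengthen filaments, 14 were lower and 1 was higher. The Arp2/3 complex starts branches, and the 7 of its subunit genes among the 56 were lower, by 1.68-fold to 5.43-fold. Of further subunit genes in the wider lists, named here after their values were seen, Arpc1a fell 1.56-fold, from 588 ± 21.5 to 376 ± 11.2, and Arpc5l rose 1.52-fold, from 214 ± 12.95 to 326 ± 40.4 (SD, n = 3 each). Another, Actr3b, had 0 reads in every library. Actr3, an actin-related subunit at the core of the complex, stood at 12173, 12294 and 12301 in control and at 3230.3, 3495 and 3274 with DKK1, 3.68-fold lower (log2 change -1.88, SE 0.05, adjusted p = 1.7e-09). Arpc5 was at 10796, 10529 and 10741 in control and at 2088, 1735 and 2082 with DKK1, the largest fall among these genes. Arpc4, which fell least of the 7, stood at 2209, 2321 and 2226 against 1404, 1312 and 1294 (log2 change -0.75, SE 0.06, adjusted p = 3.57e-06). The subunit genes thus fell to unequal degrees: the ratio of Arpc5 to Arpc4 was 4.54 to 4.89 in the control libraries and 1.32 to 1.61 in the DKK1 libraries. Arpc1b, Arpc2 and Arpc3 lay between them, at 2.61-fold, 2.83-fold and 2.87-fold. So did Actr2, the other actin-related subunit, with 9305, 9087 and 9027 in control and 3715, 3579.8 and 3816 with DKK1.

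Among the actin cytoskeleton genes, the activators of the complex fell further than most of its subunits. Activator genes in the wider lists, named here after their values were seen, did not all fall. Wasl, a relative of Was, rose 1.49-fold, from 186 ± 13.2 to 277 ± 37.7 (SD, n = 3 each). Washc1 did not pass and its groups overlapped, while Whamm fell 3.28-fold. Wipf1, which encodes the WASP-interacting protein WIP that protects WASP from degradation, stood at 6033, 6164 and 6095 in control and at 578, 574 and 564 with DKK1, 10.7-fold lower (log2 change -3.41, SE 0.05, adjusted p = 1.3e-10). Was, the WASP gene itself, fell 6.11-fold from 2115 ± 48.1 to 346 ± 23.1, and Wasf2, which encodes WAVE2, fell 4.07-fold from 2748 ± 26.7 to 674 ± 65.6 (SD, n = 3 each). Hcls1, the leukocyte relative of cortactin that holds branches together, fell 5.75-fold. Its DKK1 values were 1438, 933 and 1432, with library 2 the low one. Dbnl, a drebrin-like adaptor, fell 3.62-fold. Vasp, which speeds filament growth at its tip, fell 3.87-fold from 7538 ± 191 to 1949 ± 229, and Diaph1, a formin that builds unbranched filaments, 1.78-fold from 6283 ± 69.1 to 3532 ± 169. Of this role among the actin cytoskeleton genes, the member that rose was Evl, of the same family as Vasp. It was near the floor in control, at 3.29, 3.35 and 6.90 (13 reads in all), and stood at 26.8, 19.2 and 19.6 with DKK1 (74 reads; log2 change 2.10, SE 0.41, adjusted p = 0.00136).

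Among 12 genes of severing, capping and filament turnover, 9 fell, 2 rose and 1 did not pass. Ssh2 had the largest fall of all 56 genes. It encodes a slingshot phosphatase, which switches cofilin on, and lies on the plus strand of chromosome 11 from 77216287 to 77460220. Its counts were 16988, 16462 and 16631 in control and 136, 227 and 163 with DKK1, 95.1-fold lower (log2 change -6.60, SE 0.15, adjusted p = 9.06e-10). Cfl1, cofilin-1 itself, fell 2.53-fold, from 5885 ± 297 to 2323 ± 362. The LIM kinases, which switch cofilin off, were low throughout. Limk2 stood at 350.3, 346 and 310.3 in control and at 88.7, 57.7 and 63.7 with DKK1, 4.79-fold lower. Limk1 stood at 14.3, 41.3 and 20.7 against 11.9, 19.2 and 13.9; its groups overlapped and it did not pass (log2 change -0.62, SE 0.42, adjusted p = 0.221).

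The 3 coronins, which bind filaments and the Arp2/3 complex, moved by very different amounts. Coro1a, coronin-1A of blood cells, stood at 14206, 14183 and 14285 in control and at 347, 181 and 292 with DKK1, 52.0-fold lower (log2 change -5.75, SE 0.20, adjusted p = 1.75e-08). Coro1c fell 2.07-fold and Coro1b 1.35-fold, the latter from 1554 ± 15.3 to 1149.6 ± 89.2 (log2 change -0.44, but 0.09 with an adjusted p = 0.348 under equal totals; over the other alternatives it stayed below 0). The ratio of Coro1a to Coro1b fell from 9.16 ± 0.123 to 0.236 ± 0.0600.

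Among capping genes, the gelsolin-family genes Gsn and Capg moved in opposite directions. Gsn, gelsolin, which cuts filaments and caps the pieces, stood at 5876, 5924 and 5862 in control and at 212, 129 and 202 with DKK1, 32.5-fold lower (log2 change -5.05, SE 0.16, adjusted p = 7.03e-09). Capg (chromosome 6, 72544391 to 72562983, plus strand), a macrophage-rich relative that caps without cutting, stood at 668, 687 and 695 in control and at 3428, 3493 and 3619 with DKK1, 5.14-fold higher (log2 change 2.36, SE 0.06, adjusted p = 1.21e-09). The ratio of Gsn to Capg was 8.44 to 8.80 in control libraries and 0.0370 to 0.0620 in DKK1 libraries. Capping protein is a dimer of an alpha and a beta subunit. Its alpha-1 gene Capza1 fell from 7587, 7429 and 7087 to 2422, 2626 and 2533, while the alpha-2 gene Capza2 rose from 2033, 2100.2 and 2105 to 2396, 2782 and 2507 (log2 change 0.30, SE 0.07, adjusted p = 0.00334). Without trend and robust fitting the adjusted p of Capza2 was 0.0544. The beta gene Capzb was at 3695 ± 95.1 and 2502 ± 94.9 (log2 change -0.56, or -0.03 with an adjusted p = 0.585 under equal totals).

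Of 8 cross-linking and bundling genes, 5 were lower, 2 higher and 1 did not pass. Lcp1, L-plastin, the filament bundler of leukocytes, stood at 58139.5, 56139 and 55727 in control and at 4612, 4919 and 4788 with DKK1, 11.9-fold lower (log2 change -3.57, SE 0.04, adjusted p = 4.33e-11). Lsp1, a leukocyte-specific filament-binding protein, fell from 19908, 20150.3 and 19619.5 to 431, 434 and 438, 45.8-fold lower. Flna, filamin A, which joins filaments into networks, stood at 19513, 18589 and 19513 in control and at 1323, 1100.3 and 1278 with DKK1, 15.6-fold lower. Marcks, a membrane-bound bundler controlled by protein kinase C, fell 4.28-fold to 1466, 1863 and 1421, whereas its relative Marcksl1 stood at 1524, 1622 and 1612 in control and 1714, 2407 and 1557 with DKK1. The Marcksl1 groups overlapped, with DKK1 library 2 the high one, and it did not pass (adjusted p = 0.174); without DKK1 library 3 its log2 change was 0.36 with an adjusted p = 0.040, and without DKK1 library 2 it was 0.04.

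The alpha-actinin genes changed places. Actn1 stood at 6064, 5873 and 6019 in control and at 949.6, 894 and 974.9 with DKK1 (log2 change -2.67, SE 0.06, adjusted p = 5.6e-10). Actn4 (chromosome 7, 28893248 to 28962340, minus strand) stood at 784, 718 and 745 in control and at 3277, 3028 and 3100.3 with DKK1 (log2 change 2.06, SE 0.06, adjusted p = 5.42e-09). Both encode dimers that tie filaments side by side. The ratio of Actn1 to Actn4 was 7.73 to 8.18 in control libraries and 0.290 to 0.314 in DKK1 libraries, a 26.7-fold difference with no overlap. Fscn1, fascin, the bundler of finger-like protrusions and a gene of mature dendritic cells, had 0, 0 and 4 reads in the control libraries. Its normalized counts with DKK1 were 68.6, 33.0 and 15.5 (135 reads; log2 change 4.32, SE 0.76, adjusted p = 0.000733). The size of that change is poorly fixed, at 1.98 with a pseudocount of 10 and 6.58 with a pseudocount of 0.1.

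**Figure D4:**
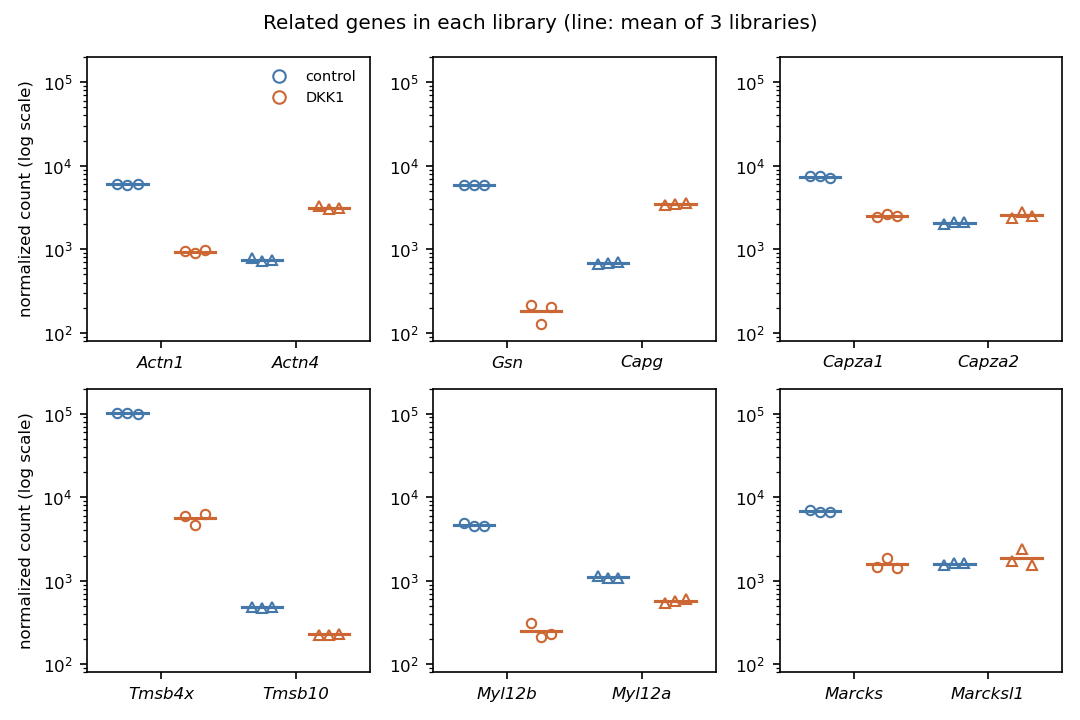
Normalized counts (y axis, log scale) of 6 pairs of related genes, with 1 marker for each library (circles for the first gene, triangles for the second) and a line at the mean of 3 libraries, control beside DKK1. The first gene of each pair is lower in every DKK1 library, while Actn4 (749 to 3135), Capg (683 to 3513) and Capza2 (2079 to 2562) have higher means with DKK1. Marcksl1 also has a higher mean (1586 to 1893), but its groups overlap.

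These pairs were picked after their values were seen, and their ratios are given as a description with no test. In each of the 6 plotted pairs the more abundant gene in control fell, and its partner fell less, rose or did not pass. Among related genes not plotted, Coro1a with Coro1b, Limk2 with Limk1 and Arpc5 with Arpc4 did the same, but others did not. Actg1, the less abundant actin in control, fell further than Actb, and Ezr fell while the more abundant Msn did not pass. For the myosin light chain genes the ratio of Myl12b to Myl12a was 4.08 to 4.39 in control and 0.368 to 0.588 with DKK1. These neighbouring genes do not overlap, but exons of each overlap, on the same strand, those of another annotated gene also named Myl12b. Of the 50-base stretches of the longest Myl12a transcript, 29.6% occur in transcripts of another gene, mostly of a gene named Myl12b. Genes of that name were not separated, so the separate values of Myl12a and Myl12b are uncertain.

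All 4 integrin linkage genes were lower. Zyx, zyxin, a LIM protein of adhesion sites and stressed filaments, had the second largest fall of the 56 genes. It lies on the plus strand of chromosome 6 from 42349630 to 42360213 and stood at 9576, 9801 and 9795 in control and at 125, 104 and 105 with DKK1, 87.3-fold lower (log2 change -6.44, SE 0.08, adjusted p = 6.06e-11). Tln1, talin-1, which switches integrins on, stood at 11974, 11955 and 12492 against 3534, 2931 and 3472, 3.67-fold lower. Fermt3, kindlin-3, its partner at the integrin tail in blood cells, stood at 1431, 1460.0 and 1506 against 649, 298 and 520.1, with DKK1 library 2 lowest and the groups still apart (log2 change -1.65, SE 0.24, adjusted p = 0.000239). Vcl, vinculin, which reinforces the talin link, had the smallest fall of the group, from 1207, 1206 and 1185 to 472, 694 and 521.

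The 6 myosin and tropomyosin genes were all lower. Myh9, the heavy chain of non-muscle myosin IIA, stood at 27923, 28235 and 28725 in control and at 2529, 1832 and 2361 with DKK1, 12.6-fold lower (log2 change -3.67, SE 0.10, adjusted p = 2.91e-09). Its light chain genes fell by unequal amounts: Myl12b from 4965, 4481 and 4462 to 316, 210.2 and 228, Myl12a from 1130.0, 1080.2 and 1094 to 537, 571 and 612, and Myl6 2.49-fold from 4144 ± 63.8 to 1667 ± 26.1. The tropomyosins, which coat filaments and set which myosins bind, fell 12.1-fold for Tpm4 (7025, 6888 and 6703 against 691, 338 and 680.1) and 2.62-fold for Tpm3.

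Among the 3 membrane linkers Ezr was lower, Rdx was higher and Msn did not pass. Msn, moesin, the main linker of leukocytes, stood at 16394, 16535 and 16599.8 in control and at 16820.0, 19685 and 16886 with DKK1. Every DKK1 value lay above every control value, but the change was small and did not pass (log2 change 0.10, SE 0.06, adjusted p = 0.163; 0.64 with an adjusted p = 3.85e-07 under equal totals). Ezr, ezrin, fell from 2707, 2767 and 2755 to 1793, 1308 and 1869.8 (log2 change -0.74, SE 0.12, adjusted p = 0.000453; -0.21 with an adjusted p = 0.217 under equal totals). Rdx, radixin, rose from 445, 480.4 and 451 to 587, 658 and 566 (log2 change 0.39, SE 0.09, adjusted p = 0.00276). Vim, vimentin, the intermediate filament gene of white cells, fell from 3643, 3523 and 3683 to 1278, 1149.8 and 1278, or 2.93-fold.

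Several actin genes have processed copies elsewhere in the genome. In 5 of the 56 genes at least 25% of the 50-base stretches of the longest transcript occur in transcripts of another gene: 56.7% in Actg1, 43.5% in Tmsb10, 49.8% in Actr3, 73.8% in Capza1 and 29.6% in Myl12a. How the authors' counting treated such reads is not given in the sources used here, so the levels of these 5 genes are uncertain. For Actg1 the annotated copy sharing most sequence, Gm12715, averaged 295 in control and 4.497 with DKK1, and adding it left the fold at 32.6. Summing Myl12a with the Myl12b gene counted here gave a fall of 6.95-fold, against 1.92-fold for Myl12a alone. Exons of 19 of the 56 genes overlap exons of a gene on the opposite strand: Actn1, Actn4, Arpc1b, Cap1, Capza1, Cfl1, Coro1a, Coro1b, Coro1c, Evl, Ezr, Fermt3, Lcp1, Msn, Myl12a, Tln1, Tpm4, Vcl and Zyx. Whether the libraries keep strand is not given, so reads of such partners cannot be told apart there. On the same strand, exons of Arpc4 overlap those of Ttll3 (10.5% of 50-base stretches shared) and exons of Coro1b those of Ptprcap (13.8%). The values and ratios of Arpc4 and Coro1b carry that uncertainty too.

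The wider actin machinery was examined in 8 further lists. Of 121 tested genes among their 136, 68 were lower and 31 higher, and 22 did not pass. Their median log2 change was -0.86. Over all genes tested 36.1% were lower and 35.1% higher. The lower share of these lists was smaller than that of the 56 genes. The lists were not matched for abundance, and the difference was not tested. With equal totals 59 of the 121 were lower and 44 higher, beside 29.2% and 43.6% of all genes tested.

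The list of the WAVE complex, which holds WAVE2 in check until Rac binds it, leaves out Wasf2, given above as 4.07-fold lower. Of its 8 tested genes 3 were lower and 3 higher, near the shares over all genes tested (36.1% lower and 35.1% higher). Its blood-cell scaffold gene Nckap1l fell 6.75-fold from 8309 ± 165 to 1230 ± 93.1 and Abi3 fell 7.82-fold. Cyfip1 rose from 517 ± 29.0 to 752 ± 64.5, and Nckap1, the relative of Nckap1l found in other tissues, rose from 2.09 ± 0.924 to 10.8 ± 2.56. Nckap1 and Abi2, the other higher genes of the list, were near the floor in control, with 6 and 9 control reads. Other nucleation genes gave 6 lower and 7 higher of 18, also near those shares. Formin genes went both ways, with Fmnl1, the formin of leukocytes, 13.1-fold lower (11959 ± 143 to 911 ± 70.2) and Fmnl2 44.2-fold higher (59.4 ± 10.8 to 2628 ± 245). Fhod1 fell 11.1-fold and Daam1 rose 8.08-fold.

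Of 18 other turnover and capping genes 10 were lower and 4 higher. Gmfg, a glia maturation factor of blood cells that removes Arp2/3 branches, fell 42.1-fold, while its relative Gmfb rose 1.98-fold. Cotl1, coactosin-like protein, fell 10.6-fold and Cfl2, the muscle-type cofilin, rose 1.75-fold. Of 17 other cross-linker and scaffold genes 12 were lower and 2 higher. Cnn2, calponin-2, fell 142-fold from 5965 ± 11.8 to 42.0 ± 8.19 and Add3, an adducin, 27.8-fold. Lasp1, an adaptor of adhesion sites, rose 1.17-fold. Other myosins and tropomyosins gave 6 lower and 5 higher of 14, again near the shares over all genes tested (36.1% and 35.1%). Myo5a, a cargo-carrying myosin, rose 12.4-fold from 909 ± 51.2 to 11251 ± 600.1, and Myo9a 1.76-fold. Myo1f fell 3.62-fold and Myo9b 2.27-fold.

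**Figure D5:**
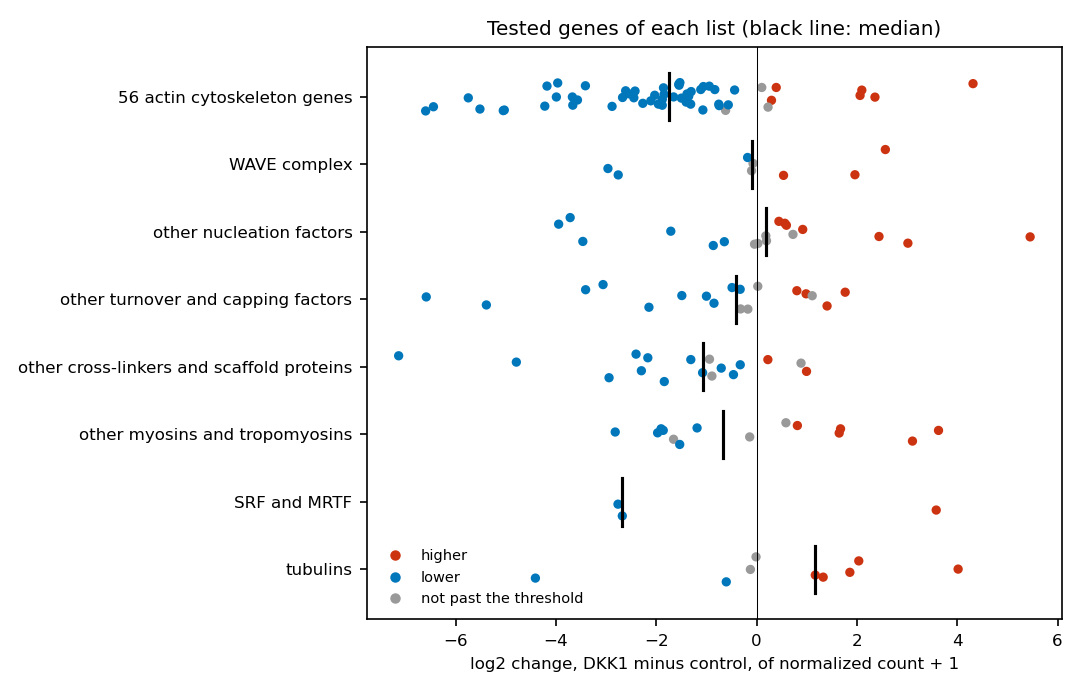
Each point is the log2 change (x axis, DKK1 minus control, normalized count plus 1) of a tested gene in the 56 actin cytoskeleton genes and in each of 7 further lists (y axis), coloured by call, with a black line at each list's median. The 56 genes have a median of -1.75, the WAVE complex and other nucleation lists have medians of -0.08 and 0.19, and the tubulin list 1.17.

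Tubulin genes, the building blocks of microtubules and no part of the actin system, are given for comparison. Of 9 tested, 5 were higher and 2 lower, beside 35.1% and 36.1% of all genes tested. Their median log2 change was 1.17. Tuba1c rose 3.64-fold from 668 ± 21.9 to 2435 ± 210.3 and Tubb6 16.5-fold, while Tuba1a fell from 654 ± 18.3 to 31.1 ± 10.97 and Tuba4a 1.52-fold.

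Many actin genes are known targets of serum response factor, SRF, whose coactivators MRTF-A and MRTF-B are held in the cytoplasm by actin monomers and which binds a DNA element called the CArG box. Srf stood at 318, 339.6 and 304 in control and at 61.1, 35.7 and 45.7 with DKK1, 6.75-fold lower (log2 change -2.76, SE 0.19, adjusted p = 1.33e-06). Mrtfa fell 6.38-fold from 1597 ± 43.4 to 250.3 ± 30.7, and Mrtfb rose 12.5-fold from 12.3 ± 3.98 to 154 ± 14.6 (SD, n = 3 each).

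The promoter windows of RefSeq (build GRCm38.p6, 250 bases before to 50 after the start of transcription) held an entry for 50 of the 56 genes. Those without an entry were Actb, Coro1b, Diaph1, Lsp1, Marcks and Twf2. A full CArG box, which reads the same on both strands as a class, was found in the windows of 4 of the 50, namely Actg1, Arpc4, Myl6 and Vcl, and in those of 488 of all 27025 genes with a window (1.81%). Among the other actin pathway genes 9 of 117 with a window held one. Actg1, Arpc4, Myl6 and Vcl were lower with DKK1, by log2 changes of -5.03, -0.75, -1.31 and -1.11 in that order. Of all 56 genes 83.9% were lower, with a median log2 change of -1.75, and Arpc4, Myl6 and Vcl fell by less than that median. A link of the falls to the box was not tested. A match describes letters in a window and is not a site or a cause. The stretches of 60 bases before the start that hold these boxes are shown with that of Srf itself, which has 2, so that the element can be seen; capitals mark the boxes and each is written 5′ to 3′ on the strand of its gene.
Actg1 (chr11:120348551-120348610, minus strand): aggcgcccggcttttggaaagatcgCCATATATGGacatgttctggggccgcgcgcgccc
Arpc4 (chr6:113377863-113377922, plus strand): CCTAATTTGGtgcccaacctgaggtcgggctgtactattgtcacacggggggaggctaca
Myl6 (chr10:128493025-128493084, minus strand): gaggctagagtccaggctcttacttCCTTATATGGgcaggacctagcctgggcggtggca
Vcl (chr14:20929148-20929207, plus strand): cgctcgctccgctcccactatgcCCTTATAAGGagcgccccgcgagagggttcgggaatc
Srf (chr17:46556200-46556259, minus strand): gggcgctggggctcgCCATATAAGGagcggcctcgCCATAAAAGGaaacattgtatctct
The box begins 90 bases before the start in Actg1, 250 in Arpc4, 50 in Myl6 and 227 in Vcl, and at 82 and 62 bases before it in Srf.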

How the data were processed

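What the authors deposited is a table of normalized counts per gene, a signal that is never negative, per the file headers. Per the submitters' processing notes the build was mm10. The sources used here give no aligner, counting tool, annotation release or normalization method. The table's 3 other per-sample columns fit no label and stayed out. All values (100%, within 0.001 reads) were whole multiples of 1 read, which let the reads be recovered.

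Libraries were grouped by title. Genes with at least 1 normalized count in at least 3 libraries were tested with limma 3.58.1 (R 4.3.3; trend, robust, two-sided) on log2(normalized count + 1), after tests on simulated data. Alternatives were other pseudocounts, filters, scalings and variance models, a replicate block, leaving out each library, and edgeR 4.0.16 and DESeq2 1.42.0 on recovered reads, which called 5551 and 5146 genes higher and 6001 and 5562 lower. Positions and exon lengths come from GENCODE M21 (GRCm38, the mm10 build), matched by identifier without version.

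Values in every library are given, among others, for the 2 most abundant genes of each role, its largest rise and fall, the membrane linkers, and genes not past the threshold. Further lists give up to 2 genes of smallest adjusted p in each direction, and Srf, Mrtfa and Mrtfb. Some results of these lists are not reported here. The members and lists were chosen with earlier results of these data known.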

Additional observations from a re-analysis of the deposited data

How the results depend on the processing

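The counts of 47 lower and 6 higher of the 56 genes held within 1.5 times under the 17 alternatives run, as did the 68 lower and 31 higher of the further lists, an addition made after seeing the data. Of 952 single-gene values under those alternatives, 945 kept direction and side of the threshold, and 50 of the 56 genes did so in every alternative. The value that reversed was Coro1b, whose log2 change was 0.0935 under equal totals. The median log2 change of the 56 genes was -1.22 under equal totals, and -1.87 to -1.68 when each library was left out in turn. The share of reads was 6.18% in control without S100a8 and S100a9 in the total; leaving out a library gave 5.87% to 5.89% for the share of all reads from the 56 actin genes, control, and 1.53% to 1.63% for the share of all reads from the 56 actin genes, DKK1. Same-numbered libraries did not deviate together (correlations of -0.005, 0.007 and 0.017 over 16265 genes). Because the spread within a group may be technical, these correlations cannot tell whether the numbers pair the samples. With a replicate block 47 of the 56 genes were lower and 6 higher, and the median log2 change was -1.75. The other changes of call were Capzb and Ezr (lost) and Marcksl1 and Msn (gained) under equal totals, Capza2 without trend and robust fitting, and Marcksl1 without DKK1 library 3. The log2 change of Fscn1 was 1.98 to 6.58 over the alternatives. Depth limits the values of Evl, Fscn1 and Limk1, with 13, 4 and 71 control reads.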
